A study of Oryza sativa with 6 samples.

Results

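The 100 genes with the most reads in the rice roots were taken from a table of 36844 genes. The counts of each library were divided by the library total to give CPM (counts relative to the total, in parts per 1000000), the CPM were averaged over the 6 libraries, and the 100 highest genes were kept. The ranking used these levels, so the levels are given as a description without a test. The difference between the cultivars was tested gene by gene over the whole table, but it is not independent of the ranking, since a mean over both cultivars admits a gene that is high in 1 of them. The mean of the lowest gene kept was 709.6 CPM, and 17 of the 100 genes had a mean below this in HHZ and 4 in 9311. Counts and medians over the 100 genes are therefore a description. Roots were sampled from the elite rice cultivars 9311 and HHZ (Huanghuazhan), with 3 replicate libraries of each. All plants were grown hydroponically, kept in a solution without NH4NO3 for 2 days from 50 days after germination (DAG), and returned to the normal solution with 1 mM NH4NO3 for 3 h before sampling. Both cultivars received this treatment, so the cultivars are the only comparison. The plants stood 2 to a container, and the labels do not say whether the replicates came from separate containers, so the p-values measure only the spread between these libraries. The reads of both cultivars were aligned to 1 reference genome, that of the japonica cultivar Nipponbare, so sequence that has diverged from it can lower a gene's counts in either cultivar.

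In a root RNA pool a small part of the genes usually holds a large part of the reads. In plant roots these are as a rule genes for protein synthesis, sugar breakdown, water channels, metal binding, cell walls and defence, and many of the last respond to the state of the plant within hours. CPM is not corrected for transcript length, so a long transcript gathers more reads than a short one with the same number of molecules, and the order given here is one of reads, not of molecules. The genes are named by their rice identifiers, in which the digits after Os give the chromosome. No member was found in the gene table used here to look up names, so no product, role or sequence is given for any of them, and root or shoot marker genes could not be checked for the same reason.

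The library totals ranged from 16622441 counts in 9311 replicate 3 to 22646162 in HHZ replicate 3. All replicates differed by more than counting noise. Over all genes, chi-square divided by its degrees of freedom lay between 19.6 and 85.2. HHZ replicate 3 stood apart from the other libraries of its cultivar. This ratio was 85.2 for it against HHZ replicate 1 and 73.1 against HHZ replicate 2, while these 2 libraries gave 19.6 against each other. Results that rest on it are given with and without it. All 100 genes were far above the detection limit. The lowest count of any of them was 1973, for Os03g0432100 in HHZ replicate 2, where the counting error was 2.25% of the count, so the spread described here is a spread between libraries and not of counting.

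The 100 genes took 18.1% ± 1.87 (SD, n = 3) of the counts in 9311 and 14.7% ± 1.45 (SD, n = 3) in HHZ. Their share was 18.6%, 19.8% and 16.1% in 9311 replicates 1, 2 and 3, and 13.8%, 13.9% and 16.3% in HHZ replicates 1, 2 and 3. The cultivars overlapped, since HHZ replicate 3 lay above 9311 replicate 3, and the difference of 3.48 percentage points was not beyond the spread (two-sided exact permutation test, p = 0.2, where 3 libraries against 3 cannot give p below 0.1). The 95% Wilson interval of a single share was at most 0.0177 percentage points to either side, and it covers counting error only. Without HHZ replicate 3 the difference was 4.32 points, and without 9311 replicate 3 it was 4.51 points. It was 1.96 points for the 100 highest genes of HHZ alone and 4.17 points for those of 9311 alone. The next 900 genes in the ranking took 26.3% ± 0.241 (SD, n = 3) in 9311 and 26.4% ± 0.169 (SD, n = 3) in HHZ.

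**Figure D1:**
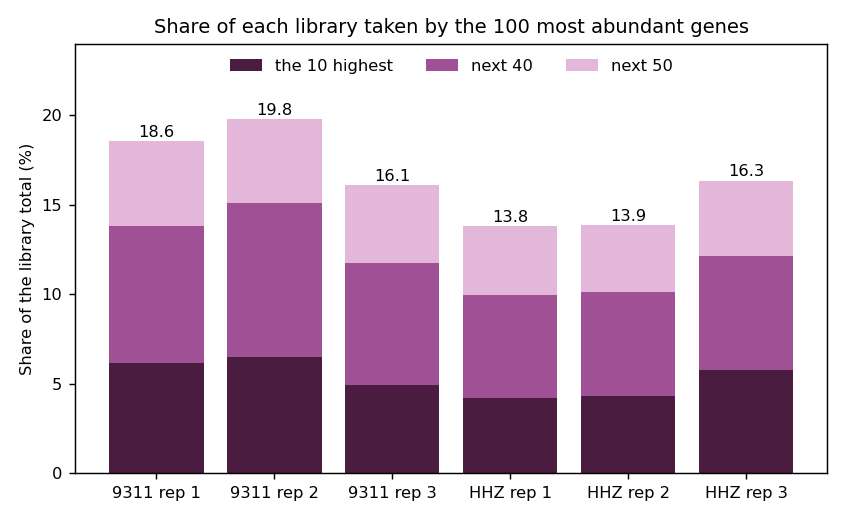
Share of each library total (%, vertical axis) taken by the 100 most abundant genes, with 1 bar per library divided into the 10 highest, the next 40 and the next 50. The 9311 bars stand between 16.1% and 19.8% and the HHZ bars between 13.8% and 16.3%, and the bars of replicate 3 of both cultivars are close to each other.

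Within the 100 genes, the segments of the ranking differed. The 10 highest genes took 6.14%, 6.49% and 4.94% of the 9311 libraries and 4.21%, 4.33% and 5.75% of the HHZ libraries, so the cultivars overlapped there. The next 40 genes took 7.68% ± 0.911 (SD, n = 3) in 9311 and 5.95% ± 0.366 (SD, n = 3) in HHZ, and the last 50 took 4.61% ± 0.193 (SD, n = 3) in 9311 and 3.95% ± 0.237 (SD, n = 3) in HHZ. In either of these segments all 9311 libraries lay above all HHZ libraries, and the two-sided exact permutation test gave p = 0.1 for each, the smallest it can give.

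A few genes held most of the net difference in share. A larger mean share in 9311 was found for 63 genes, which together gained 4.77 percentage points, and a larger mean share in HHZ for 37, which together took off 1.28 points. The 6 genes with the largest gains held 2.02 points, more than 50% of the net difference. They were Os01g0905800 with 0.380 points, Os11g0210500 with 0.358, Os03g0223400 with 0.357, Os03g0226200 with 0.354, Os03g0432100 with 0.289 and Os01g0256500 with 0.287. On the other side, the largest differences were 0.166 points more in HHZ for Os12g0632000 and 0.107 points more for Os03g0107300. These genes were picked for the size of their difference, so their points are a description.

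Each of the 10 highest genes held between 0.288% and 0.916% of the counts on average over the 6 libraries. Os03g0223400, the first in rank, took 1.07%, 1.39% and 0.821% in 9311 replicates 1, 2 and 3 and 0.801%, 0.630% and 0.782% in HHZ replicates 1, 2 and 3. It led every 9311 library and HHZ replicate 1. Os12g0632000, the second, took 0.788%, 0.715% and 0.819% in 9311 and 0.788%, 0.974% and 1.06% in HHZ, and it led HHZ replicates 2 and 3. Neither gene passed the test between the cultivars, with an adjusted p of 0.271 for Os03g0223400 and 0.742 for Os12g0632000 in edgeR's quasi-likelihood test.

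The other genes of the leading 10 fell into steady and variable ones. Os02g0626100 was among the steady genes, with 0.595% to 0.677% of the 9311 libraries and 0.515% to 0.592% of the HHZ libraries. Os04g0656100 took 0.417%, 0.544% and 0.441% in 9311 and 0.442%, 0.456% and 0.430% in HHZ, so its shares in HHZ lay within those in 9311. After TMM scaling, HHZ replicates 1 and 2, with 4101 and 4159 CPM, lay below every 9311 library of this gene. Os03g0291500 took 0.702%, 0.488% and 0.635% in 9311 and 0.386%, 0.537% and 0.710% in HHZ, with the highest value of all in HHZ replicate 3. The steady genes thus differed by less between cultivars than Os03g0291500 did between replicates of HHZ. Os03g0107300 took 0.246% to 0.316% in 9311 and 0.358% to 0.423% in HHZ, without overlap on this scale, but the cultivars overlapped after TMM scaling. Os10g0167300 took 0.272% to 0.412% in 9311 and 0.211% to 0.270% in HHZ, and again the cultivars overlapped after TMM scaling. In edgeR, the adjusted p was 0.473 for Os03g0107300 and 0.229 for Os10g0167300.

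For 2 of the leading 10 genes, the mean in 9311 was more than 2 times that in HHZ. Os01g0905800 took 0.631%, 0.927% and 0.522% in 9311 and 0.294%, 0.264% and 0.382% in HHZ, and the log2 fold change was 1.27 (SE 0.34, adjusted p = 0.0886 in edgeR). Os01g0256500 took 0.617%, 0.648% and 0.409% in 9311 and 0.204%, 0.239% and 0.370% in HHZ, and the log2 fold change was 1.15 (SE 0.37, adjusted p = 0.136 in edgeR). Every 9311 library lay above every HHZ library for both, yet neither passed the threshold of 0.05 in edgeR with all 6 libraries. DESeq2 called both with all 6 libraries, with an adjusted p of 0.00176 for Os01g0905800 and 0.0142 for Os01g0256500. Limma-voom called neither, with an adjusted p of 0.0655 and 0.104. Without HHZ replicate 3, the adjusted p in edgeR was 0.0347 for Os01g0905800 and 0.0252 for Os01g0256500. That library was the highest of HHZ for both, so leaving it out narrows the spread in HHZ, and these values are a description. The adjusted p in edgeR was 0.238 and 0.314 without HHZ replicate 1, and 0.273 and 0.356 without HHZ replicate 2, in the same order of genes. Os11g0428800 ranked eighth on the strength of 3 libraries, as described with replicate 3 of both cultivars further on.

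**Figure D2:**
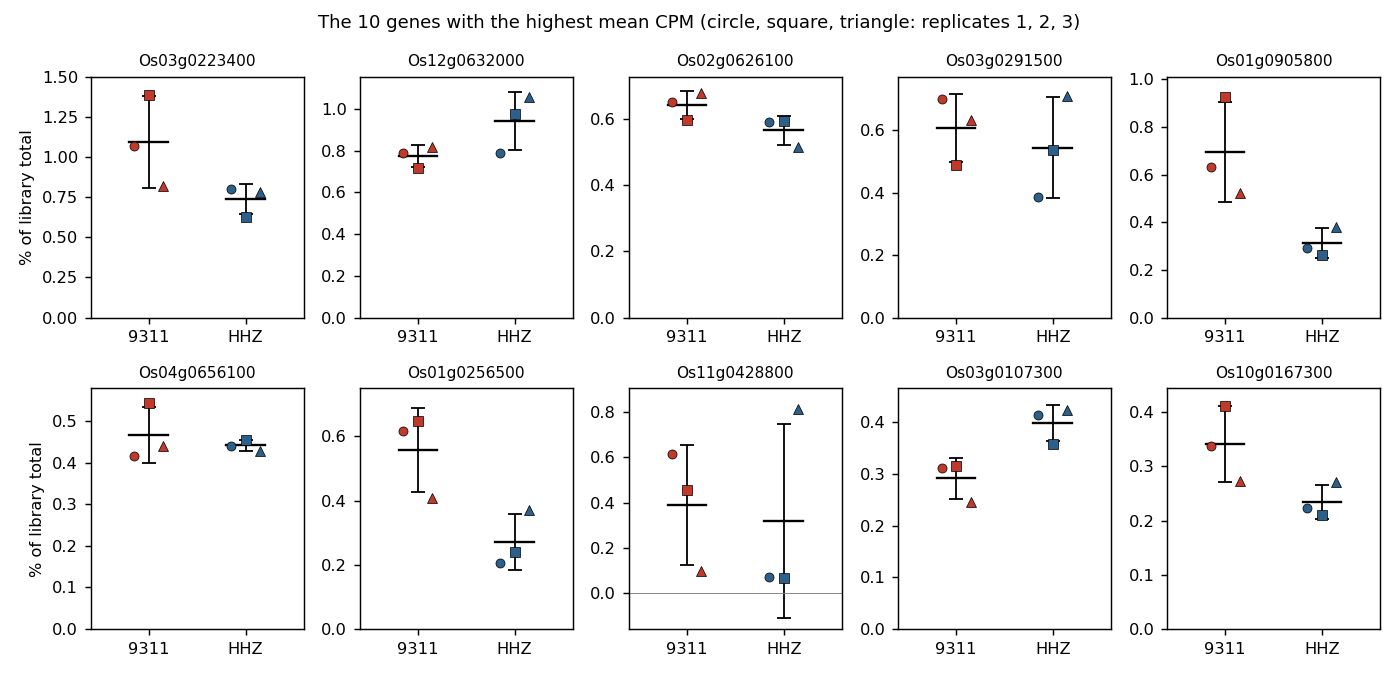
Share of the library total (%, vertical axes, each with its own scale) of the 10 genes with the highest mean CPM, with circles, squares and triangles for replicates 1, 2 and 3, horizontal lines for the mean and bars for the SD (n = 3). Os11g0428800 is high in 9311 replicates 1 and 2 and in HHZ replicate 3 and low in the other libraries, and its SD bar in HHZ reaches below 0.

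The set of 100 genes was similar, but not identical, in each library. Of the 100 highest genes of a single library, 84 to 91 were among the 100 in the 9311 libraries and 76 to 84 in the HHZ libraries. A total of 53 genes were among the 100 highest of every library, 17 were among them in 3 libraries or fewer, and the rankings of the 6 libraries named 163 different genes. The lowest place of any of the 100 was 2447, for Os03g0432100 in HHZ replicate 2. Ranking by HHZ alone kept 84 of the 100 genes and ranking by 9311 alone kept 90. The limit of the list separates close values. Just inside it were Os04g0688100, Os10g0454200 and Os01g0682001, with a mean of 713, 712 and 709.6 CPM, and just outside it were Os05g0567100, Os10g0478200 and Os07g0185900, with 705, 704 and 699.6 CPM.

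The cultivars were compared with edgeR's quasi-likelihood test over all 22554 genes with enough counts, after TMM scaling, which corrects the library totals so that most genes are level between libraries. All 100 genes were tested. In RNA of whole roots, fewer cells of a type cannot be told apart from less RNA per cell. At an adjusted p under 0.05 (Benjamini-Hochberg adjustment over all genes tested), 7 of the 100 genes differed between the cultivars, against 6.51% of all genes, a share near this background. Of the 7 genes, 6 were higher in 9311, where the share of all genes is 3.25%, and 1 was higher in HHZ, where it is 3.26%. Of the 6 genes higher in 9311, 4 had a mean in HHZ below 709.6 CPM and so entered the list through 9311. At an unadjusted p under 0.05 there were 34 of the 100 genes, against 21.0% of all genes. The number of genes called rested on single libraries. Without HHZ replicate 3 it rose to 24 of the 100 genes, against 11.9% of all genes, with 23 higher in 9311 (6.93% of all genes) and 1 higher in HHZ (4.94%). When HHZ replicate 1 or HHZ replicate 2 was left out, 0 of the 100 genes passed in edgeR, against 4.01% and 3.32% of all genes, with 24 and 21 at an unadjusted p under 0.05. It called 3 without 9311 replicate 1 (3.54% of all genes), 4 without 9311 replicate 2 (3.35%) and 6 without 9311 replicate 3 (4.97%), each near its background. DESeq2 called 28 of the 100 genes with all 6 libraries against 11.0% of all genes with an adjusted p, with 24 higher in 9311 (5.60% of all genes) and 4 higher in HHZ (5.36%). Limma-voom called 11, against 6.59% of all genes, and edgeR with library totals only called 13, against 6.43%.

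The 100 genes leaned toward 9311 in these libraries. The median log2 fold change of 9311 over HHZ was 0.25 over the 100 genes, 0.05 over the next 900 genes in rank and -0.01 over all genes tested, and it was above 0 for 68 of the 100 genes, against 49.1% of all genes. All 9311 libraries lay above all HHZ libraries for 29 of the 100 genes, against 13.0% of all genes, and the reverse held for 9, against 14.3%. Without HHZ replicate 3, the former number was 51, against 23.7% of all genes, and the latter 12, against 22.9%. With library totals in place of TMM scaling, the median over all genes moved to -0.13 and that of the 100 genes to 0.15, and 63 of the 100 genes were above 0. The lean also depended on which cultivar chose the list. The 100 highest genes of 9311 alone had a median of 0.42 and those of HHZ alone a median of 0.08, as the choice favours genes that are high in the choosing cultivar.

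The fold change was 2 or more for 17 of the 100 genes, all higher in 9311, against 6.18% of all genes in that direction, and for 0 in the other direction, against 5.98%. Of these 17 genes, 8 had a mean in HHZ below 709.6 CPM and entered the list through 9311, so the direction of these was set by the ranking. Of the 17 genes, 6 were called. Apart from the 7 called genes, 31 of the 100 had no overlap between the cultivars, 23 of them higher in 9311 and 8 higher in HHZ, with adjusted p-values in edgeR from 0.0553 to 0.683. For 11 genes the adjusted p lay between 0.05 and 0.1.

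**Figure D3:**
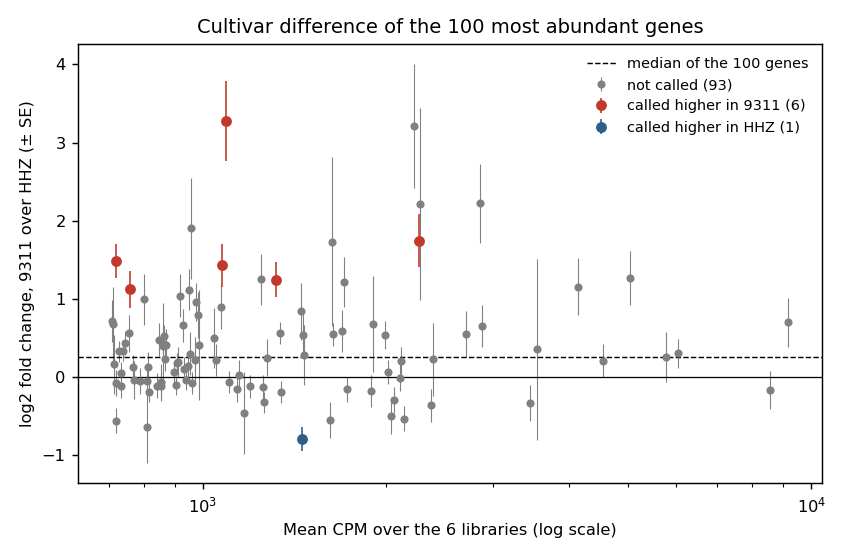
Log2 fold change of 9311 over HHZ with its SE (vertical axis) against the mean CPM over the 6 libraries (horizontal axis, log scale) for the 100 most abundant genes, with the 6 genes called higher in 9311 in red, the 1 called higher in HHZ in blue and the others in grey. The dashed line is the median of the 100 genes at 0.25, and no gene lies at -1 or lower.

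The 6 genes called higher in 9311 together took 1.08% ± 0.296 (SD, n = 3) of the counts in 9311 and 0.369% ± 0.0495 (SD, n = 3) in HHZ. Their values are given as TMM-scaled CPM. The largest difference was that of Os03g0233900, with 1266, 3341 and 1611 in 9311 replicates 1, 2 and 3 and 186, 128 and 326 in HHZ replicates 1, 2 and 3. The lowest 9311 library was well above the highest HHZ library, although replicate 2 stood high within 9311 and replicate 3 within HHZ. Its means were 2072 ± 1112 (SD, n = 3) and 213 ± 101.3 (SD, n = 3), a log2 fold change of 3.28 (SE 0.51, adjusted p = 0.0143 in edgeR). Os01g0147900, which ranked 16 and was the most abundant of the 7, had 3524, 4805 and 2499 TMM-scaled CPM in 9311 and 968, 805 and 1458 in HHZ. Its log2 fold change was 1.74 (SE 0.34, adjusted p = 0.0305 in edgeR), and replicate 3 of 9311 and of HHZ were the nearest to each other.

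Os01g0631200 had the lowest adjusted p of the 100 genes. Its TMM-scaled CPM was 981, 1407 and 878 in 9311 and 356, 377 and 434 in HHZ, and its log2 fold change was 1.48 (SE 0.21, adjusted p = 0.0106 in edgeR). The HHZ libraries were close together, and 9311 replicate 2 stood high. Os03g0784700 was similar, with 1575, 2472 and 1639.7 TMM-scaled CPM in 9311 and 776, 737 and 885 in HHZ, a log2 fold change of 1.25 (SE 0.22, adjusted p = 0.0236 in edgeR). Again 9311 replicate 2 was the highest library and the HHZ libraries were within a narrow range.

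Os05g0443500 had 1403, 2199 and 1229 TMM-scaled CPM in 9311 and 475, 605 and 716 in HHZ, and the log2 fold change was 1.43 (SE 0.28, adjusted p = 0.0315 in edgeR). Os12g0168900 had 1167, 1219 and 811 in 9311 and 427, 422 and 619 in HHZ, and the log2 fold change was 1.12 (SE 0.24, adjusted p = 0.0418 in edgeR). In both genes the lowest 9311 library and the highest HHZ library were replicate 3 of each cultivar. The only gene called higher in HHZ was Os11g0167800, with 1044, 1006 and 1092 TMM-scaled CPM in 9311 and 1687, 2054 and 1710.3 in HHZ, a log2 fold change of -0.79 (SE 0.15, adjusted p = 0.0310 in edgeR). Its 9311 libraries were nearly level, and it was the smallest difference of the 7.

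**Figure D4:**
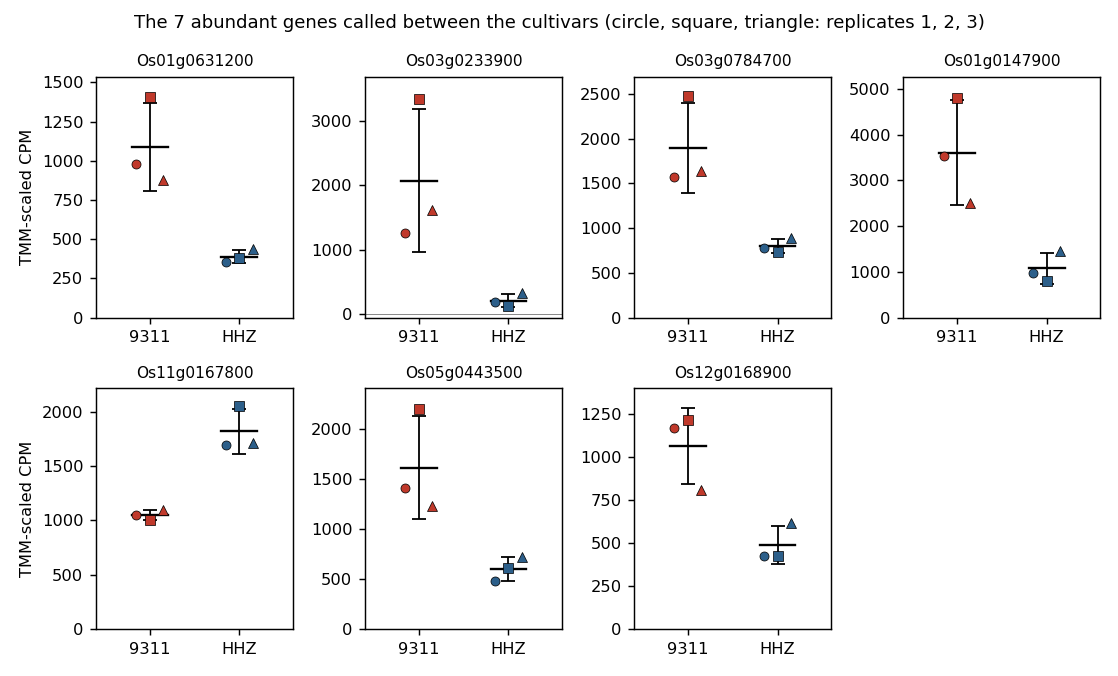
TMM-scaled CPM (vertical axes, each with its own scale) of the 7 abundant genes called between the cultivars, with circles, squares and triangles for replicates 1, 2 and 3, horizontal lines for the mean and bars for the SD (n = 3). The cultivars do not overlap in any panel, and Os11g0167800 is the only gene with HHZ above 9311.

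Replicate 2 was the highest 9311 library for each of the 6 genes called higher in 9311. Os01g0631200, Os03g0233900 and Os03g0784700 stayed called in 12 of the 15 alternative fits, Os01g0147900, Os05g0443500 and Os12g0168900 in 9, and Os11g0167800 in 8. All 7 kept their direction in all 15 fits. Os11g0210500 and Os03g0226200 had larger fold changes than most of them and were not called in the edgeR test that called the 7 genes. DESeq2 called both with all 6 libraries, with an adjusted p of 5.44e-05 for Os11g0210500 and 3.3e-05 for Os03g0226200. Of the 15 alternative fits, 6 called Os11g0210500 and 3 called Os03g0226200. Os11g0210500, which was picked after its values were seen, had 4462, 7068 and 3186 TMM-scaled CPM in 9311 and 815, 574 and 1764 in HHZ, and the log2 fold change was 2.22 (SE 0.51, adjusted p = 0.0553 in edgeR). Os03g0226200 had 3199, 6556 and 2884 TMM-scaled CPM in 9311 and 343, 110.3 and 912 in HHZ, and the log2 fold change was 3.21 (SE 0.80, adjusted p = 0.0712 in edgeR). In both, HHZ replicate 3 was above the other HHZ libraries. Without it the adjusted p in edgeR was 0.00853 for Os11g0210500 and 0.0117 for Os03g0226200, given as a description because leaving out the library that stood high narrows the spread in HHZ.

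Most of the higher share of the 100 genes in HHZ replicate 3 came from a small number of them. In 14 of the 100 genes it was at least 2 times the geometric mean of HHZ replicates 1 and 2 in TMM-scaled CPM, against 8.67% of the next 900 genes in rank and 7.23% of all genes, and in 2 it was at most 50% of it, against 4.06%. The share of the 100 genes was 2.51 percentage points higher in HHZ replicate 3 than on average in replicates 1 and 2, and 2.03 of these points came from the 14 genes. The 14 genes took 3.47%, 3.86% and 1.93% of 9311 replicates 1, 2 and 3 and 0.711%, 0.699% and 2.73% of HHZ replicates 1, 2 and 3. Their summed share was thus high in 9311 replicates 1 and 2, low in HHZ replicates 1 and 2, and in between in replicate 3 of both. Not every gene followed the sum. Os11g0428800, Os01g0803300, Os02g0768300 and Os04g0688100 were highest of all in HHZ replicate 3, Os02g0768300 by a small margin. In Os03g0203200, Os03g0276500 and Os08g0120600, HHZ replicate 3 was above 9311 replicate 2. The 14 genes were chosen on the HHZ values, so the list carries no test. The 9311 values also entered, through the ranking over all 6 libraries. That ranking favours genes that are high in 9311 where HHZ is low, so the 9311 levels are a description too.

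The strongest case was Os03g0432100, with 5147, 5422 and 1348 TMM-scaled CPM in 9311 and 221, 83.9 and 2268 in HHZ. The highest library was 64.6 times the lowest, and HHZ replicate 3 was above 9311 replicate 3. Os11g0428800 had 6591, 4948 and 962 in 9311 and 675, 629 and 8475 in HHZ, so its highest library was HHZ replicate 3 and 9311 replicate 3 was near the low HHZ libraries. Alone it brought 0.743 points of the higher share in HHZ replicate 3. Os09g0482800 had 2928, 3713 and 1281 in 9311 and 150.5, 164 and 2070.3 in HHZ. With all 6 libraries none of these 3 genes was called, with adjusted p-values in edgeR of 0.364 for Os03g0432100, 0.896 for Os11g0428800 and 0.420 for Os09g0482800. Without HHZ replicate 3 they were 0.0153, 0.0753 and 0.00487, but these genes were picked for their rise in that library, so the lower values follow from the choice and support nothing.

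Replicate 3 of 9311 departed from its cultivar at many of the same genes, in the opposite direction. It was the lowest 9311 library for 11 of the 14 genes and for 62 of all 100, against 34.6% of all genes, and HHZ replicate 3 was the highest HHZ library for 69 of the 100, against 38.8%. Both held together for 52 of the 100 genes, against 17.5% of all genes tested. This joint count follows in large part from the single counts of 62 and 69, so it is not a separate result. Over the 100 genes, the log2 departure of HHZ replicate 3 from HHZ replicates 1 and 2 and that of 9311 replicate 3 from 9311 replicates 1 and 2 had a Pearson correlation of -0.70 and a Spearman correlation of -0.61. Over the next 900 genes in rank the Pearson correlation was -0.29, and over all genes tested it was -0.15. The departures come from different libraries, but the points of each set share the same 6 libraries and scaling factors, so the coefficients describe these libraries only. The labels give no batch that joins replicate 3 of both cultivars, and 9311 replicate 3 was also the library with the fewest counts. The part of depth in this was not tested.

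**Figure D5:**
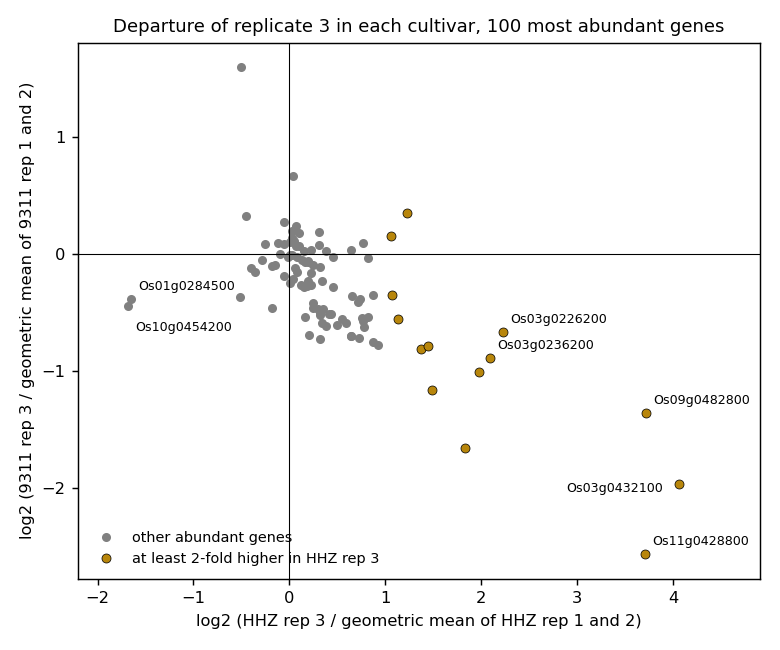
Log2 departure of 9311 replicate 3 from the geometric mean of 9311 replicates 1 and 2 (vertical axis) against that of HHZ replicate 3 from the geometric mean of HHZ replicates 1 and 2 (horizontal axis), with 1 point for each of the 100 genes. The 14 genes at least 2-fold higher in HHZ replicate 3 are filled in gold, and Os03g0432100, Os09g0482800 and Os11g0428800 lie farthest to the right and low.

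A few abundant genes moved the other way in HHZ replicate 3. Os01g0284500 had 3009, 2563 and 2119 TMM-scaled CPM in 9311 and 3490.5, 2201 and 882 in HHZ, and Os10g0454200 had 948, 976 and 706 in 9311 and 895, 538 and 216 in HHZ. For both genes the low library was HHZ replicate 3, while HHZ replicate 1 was near or above the highest 9311 library. Os12g0571100 had 2072, 1545 and 1384 in 9311 and 2487.5, 2738 and 1826 in HHZ, a smaller departure in the same direction. The adjusted p in edgeR was 0.829 for Os01g0284500, 0.480 for Os10g0454200 and 0.299 for Os12g0571100. Os03g0103100, picked after its values were seen, was apart in other libraries. It had 530.1, 612 and 1721 in 9311, where replicate 3 was the high library. In HHZ it had 993, 1967 and 988, and HHZ replicate 2 was the highest library of all.

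Against these variable genes, 34 of the 100 genes stayed within 1.5-fold between the highest and the lowest of all 6 libraries, where 49.3% of the next 900 genes in rank and 32.7% of all genes did. More than 4-fold was found for 16 of the 100 genes, for 8.33% of the next 900 and for 14.5% of all genes. The median SD of log2 values between replicates was 0.26 in 9311 and 0.22 in HHZ for the 100 genes, 0.18 and 0.17 for the next 900, and 0.20 and 0.23 for all genes tested. The steadiest genes, picked after their values were seen, were Os03g0278000 and Os11g0199200, whose highest library was 1.11 and 1.12 times the lowest. Their TMM-scaled CPM was 851 to 947 for Os03g0278000 and 901 to 1009 for Os11g0199200, and the log2 fold changes between the cultivars were -0.10 (SE 0.12) and -0.04 (SE 0.13).

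By their identifiers, the 100 genes came from all 12 chromosomes. Chromosome 3 held 21 of them, with 13.1% of the genes tested, and chromosome 11 held 10, with 5.51% of the genes tested, while chromosome 9 held 2, with 5.48%. Neighbouring rows of the table held 2 pairs of the 100 genes. Os02g0626100 and Os02g0626400 ranked 3 and 83, with TMM-scaled means of 6674 and 788 in 9311 and 5410.0 and 819.8 in HHZ. Os11g0455500 and Os11g0455800 ranked 18 and 79, with means of 1739 and 810.2 in 9311 and 2521 and 875 in HHZ. Reads of near-identical or overlapping neighbours can be hard to assign to 1 gene. The strand setting of the counting is not given in the sources used here, so the counts within a pair are uncertain. The difference between the 2 genes of a pair was not tested. The log2 fold change was 0.30 (SE 0.19) for Os02g0626100 and -0.06 (SE 0.17) for Os02g0626400, and it was -0.54 (SE 0.16) for Os11g0455500 and -0.11 (SE 0.16) for Os11g0455800. None of these 4 genes passed the threshold in edgeR after TMM scaling, with adjusted p-values from 0.119 to 0.883. DESeq2 called Os02g0626100 (adjusted p = 0.0174) and Os11g0455500 (adjusted p = 0.00249), and not the other gene of either pair. With library totals only, edgeR called Os11g0455500 (adjusted p = 0.0324).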

How the data were processed

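RNA was sequenced from the roots of 6 samples, 3 of each cultivar, and the authors deposited raw counts of reads per gene, with no normalization or pooling. After adaptor trimming, STAR was used both for alignment to IRGSP-1.0 and for counting on the gene models of Ensembl Plants. The submitters' processing notes give STAR 2.5.3a, while the paper names another version. The annotation release and the strand column are not given in the sources used here.

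The deposited counts of the cultivars were tested against each other in R 4.3.3 with edgeR 4.0.16 (TMM factors, filterByExpr with a minimum count of 10, quasi-likelihood test, cultivar as the only term, Benjamini-Hochberg adjustment, threshold 0.05). The standard error was the log2 fold change divided by the square root of F. The alternatives were DESeq2 1.42.0 (which the study used), limma-voom (limma 3.58.1), other scalings, filters, thresholds and rankings, a replicate block, and fits without each single library. The fit was tested on simulated counts of 22554 genes. Other summaries were computed in Python 3.11.15. The genes, lists and alternatives were chosen with earlier results of these data known.

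The genes named were the 10 highest, all called, the 5 with the highest ratio between libraries, the 3 with the largest rise and the 3 with the largest fall in HHZ replicate 3, and adjacent pairs, 26 in all. Functional groups and tissue markers had been planned by product name and were not analysed, because 1 identifier of the count table, and 0 of the 100 genes, was found in the RefSeq gene table of assembly ASM3414082v1 with 39387 genes.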

Additional observations from a re-analysis of the deposited data

How the results depend on the processing

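The number of the 100 genes called between the cultivars was 7 (6 higher in 9311 and 1 higher in HHZ). It was 28 with DESeq2 (24 and 4), 11 with limma-voom (10 and 1), 13 with library totals only (11 and 2) and 3 when every library had to reach 10 counts (3 and 0, against 2.80% of all genes). An adjusted p under 0.01 left 0 in edgeR, and requiring a 2-fold change left 6 (6 and 0). Leaving out 1 library at a time gave 0 to 24 (0 to 23 higher in 9311 and 0 to 1 higher in HHZ), with the highest count without HHZ replicate 3 and 0 without HHZ replicate 1 or 2. Among the 200 highest genes 11 were called (3 higher in HHZ). The 100 highest genes of HHZ alone held 2 called higher in 9311 and 3 called higher in HHZ. Apart from the stricter thresholds and the other lists, the causes were not tested. The RLE factors, upper quartile factors, TMM factors estimated without the 100 genes, no filter, the 50 highest genes, the median and the TMM-scaled rankings and the ranking by 9311 alone kept each count within 1.5 times. The lists of 50 and 200 genes differ in length from that of 100, so their counts are not directly comparable with it.

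The labels give replicate numbers but do not say whether these pair the libraries. Across genes, the correlation between libraries of the same number was -0.13, 0.07 and -0.15, taken on departures from the cultivar mean. These low values cannot decide whether the libraries were paired. With the replicate block, edgeR called 0 of the 100 genes (0 higher in 9311 and 0 in HHZ), against 2.08% of all genes, with 21 at an unadjusted p under 0.05.

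Genes higher in 9311 without overlap numbered 29, against 13.0% of all genes. They numbered 51 without HHZ replicate 3, against 23.7% of all genes, and 46 without 9311 replicate 3. Leaving out HHZ replicate 3 thus raised the share of all genes as well. Genes higher in HHZ without overlap numbered 9, against 14.3% of all genes, and 17 with library totals only. The share of all genes was not computed without 9311 replicate 3 or with library totals only. The numbers 46 and 17 therefore have no background and are a description. These alternatives for the overlap, and the share without the 7 called genes, were chosen after seeing the data. The difference in share of 3.48 percentage points stayed positive, between 2.67 and 4.51 points with 1 library left out and between 1.96 (highest genes of HHZ alone) and 4.17 (of 9311 alone) with other lists, and moved by less than 1 SD (1.68 points) under each alternative run.

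Of 389 comparisons of a named gene with an alternative fit, 338 kept direction and call, 34 lost the call, 12 gained it and 5 changed sign, none of them a called gene. The log2 fold change of Os11g0428800 was -0.149 without 9311 replicate 1, -0.127 without HHZ replicate 1 and -0.134 without HHZ replicate 2, within a range of -0.149 to 2.66 over the fits without 1 library. That of Os01g0284500 was -0.163 without HHZ replicate 3 (range -0.163 to 0.733), and that of Os02g0626400 was 0.0702 without 9311 replicate 2 (range -0.146 to 0.0702).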
